A study of Homo sapiens with 18 samples.

Results

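The genes described here encode the protein core of the spliceosomal small nuclear ribonucleoproteins (snRNPs). They were taken by gene symbol from the poly(A) count table, and 39 of its 47021 genes were members. The list holds 7 Sm ring proteins, 7 LSm ring proteins, 3 proteins of the U1 snRNP, 11 of the U2 snRNP, the 2 subunits of U2AF, 5 proteins of the U5 snRNP and 4 proteins of the U4/U6 snRNP and the Prp19 complex. All 39 passed the filter on low counts, among 14732 genes tested.

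Introns are removed by the spliceosome, which is assembled on each intron from snRNPs made of a small nuclear RNA and its proteins. The U1 snRNP pairs with the 5′ splice site, U2AF reads the polypyrimidine tract and the intron's last bases, and the U2 snRNP takes up the branch point. The U4/U6.U5 tri-snRNP then joins, U4 is unwound from U6, and the Prp19 complex accompanies the formation of the catalytic centre. A ring of Sm proteins surrounds U1, U2, U4 and U5 RNA, and a related LSm ring holds the end of U6 RNA.

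RNA came from DLD1, an established human colorectal adenocarcinoma line, infected with lentivirus and selected with puromycin at 10 µg/ml. Cells carried CRISPR guide 1 (sgZ1) or guide 3 (sgZ3) against ZNF692, a zinc-finger gene, both with the genotype ZNF692 KO, or a control guide (sgC). Each guide had 3 poly(A) libraries, and these 9 libraries of 18 in the series are used here. Neither clonality of the lines nor the origin of the replicates is stated in the labels. The p-values therefore reflect the spread between these libraries, which may be technical. The comparison of each guide with sgC asks which transcripts differed in the edited cells, and the comparison of sgZ3 with sgZ1 asks whether the guides differed.

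Total counts ran from 16044224 to 24535642 per library. Levels are given as CPM, the counts of a gene scaled to the size of its library with TMM factors, which level the bulk of genes between libraries. ZNF692 itself had 9.64, 9.82 and 11.5 CPM in sgZ1 libraries, 7.92, 8.08 and 6.29 CPM in sgZ3 libraries and 7.01, 6.32 and 6.18 CPM in sgC libraries. Its log2 fold change was 0.66 ± 0.14 for sgZ1 against sgC (edgeR, adjusted p = 0.0048) and 0.19 ± 0.14 for sgZ3 against sgC (adjusted p = 0.32). Counts over a whole gene do not show edited bases, so these values check neither the labels nor the knockout. The summed level of 8 epithelial markers was 8559 to 9410 CPM in sgZ1 libraries, 10580 to 11540 CPM in sgZ3 libraries and 8744 to 9776 CPM in sgC libraries. Of these 8, 3 were called lower with sgZ1 against sgC, 3 higher with sgZ3 against sgC and 5 higher with sgZ3 against sgZ1. Their part in the results below was not tested. The 5 leukocyte markers together reached at most 0.197 CPM. The 4 endothelial markers summed to 2.01 to 3.67 CPM.

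Some libraries stood apart from others of their group. The summed level of 8 mesenchymal markers was 103.2 CPM in sgZ1 replicate 2 and 107.4 CPM in sgZ3 replicate 3, against 6.09 to 8.09 CPM in the other 7 libraries, and 4 of those 8 markers passed the filter. VIM, an intermediate filament gene typical of such cells, reached 22.9 CPM in the first and 21.2 CPM in the other, and 1.22 CPM at most elsewhere. The median log2 deviation of short transcripts from the mean of all libraries, minus that of long transcripts (below the lower and above the upper quartile of length), stood at 0.475 and 0.447 in sgZ3 replicates 1 and 2. The same measure was -0.077 in sgZ3 replicate 3, -0.244, 0.174 and -0.068 in the sgZ1 libraries and -0.211, -0.104 and -0.369 in the sgC libraries. The counts below are therefore also given without either pair.

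Over both guides, 25 of the 39 genes (64.1%) rose against sgC and 0 fell (edgeR's quasi-likelihood test, Benjamini-Hochberg adjusted over all tested genes, false discovery rate under 0.05). Here the mean of sgZ1 and sgZ3 was set against sgC, so a gene could be called without passing for each guide. Of these 25, SNRPA, SNRPC, SNRPE, LSM2 and EFTUD2 were not called with sgZ1 against sgC, and PRPF31 was not called with sgZ3 against sgC. Of all tested genes 33.2% were called, 18.6% as higher and 14.6% as lower. The log2 fold changes of the members had a median of 0.44 and ran from -0.15 for LSM8 to 0.84 for LSM7, against a median of 0.008 for all genes. In 22 of the 39, each of the 6 libraries of the ZNF692 guides lay above each sgC library, a pattern found in 11.9% of all tested genes. The 14 genes not called were SNRPB, SNRPD3, LSM5, LSM8, SNRPB2, SF3A1, SF3A2, SF3B1, SF3B2, SF3B6, U2AF1, PRPF6, PRPF8 and SNRNP200. These are bulk libraries, in which more RNA of a gene per cell and more cells that make it cannot be told apart.

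Summed over the 39 genes, the level was 6705, 7015 and 7164 CPM in sgZ1 libraries, 7281, 7195 and 6816 CPM in sgZ3 libraries and 5314, 5768 and 5535 CPM in sgC libraries, with no overlap between guided and control libraries. With sgZ1, 22 of the 39 genes rose and 0 fell, where 25.8% of all tested genes were called, 15.5% as higher and 10.3% as lower. With sgZ3, 25 rose and 0 fell, where 36.3% were called, 19.2% as higher and 17.1% as lower. The median log2 fold change of the members was 0.38 for sgZ1 and 0.46 for sgZ3, against 0.011 and -0.018 for all genes. Both guides were set against the same 3 sgC libraries, so the 2 comparisons are not independent. Without the pair of libraries with mesenchymal transcripts, 30 genes rose and 0 fell with sgZ1 (22% and 17.5% of all genes), and 29 rose and 4 fell with sgZ3 (23.9% and 31.3%). Without sgZ3 replicates 1 and 2, the count for sgZ3 was 5 higher and 0 lower, where 4.11% of all genes were called higher and 1.95% lower, and the remaining sgZ3 library was assumed to vary like the other groups. Those 5 were SNRNP70, U2AF2, SNRPD1, SF3B3 and PRPF3. Over both guides, 19 genes rose and 0 fell without these replicates (10.9% of all genes higher, 7.29% lower), and 30 rose and 0 fell without the mesenchymal pair (23.1% and 26.6%).

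**Figure D1:**
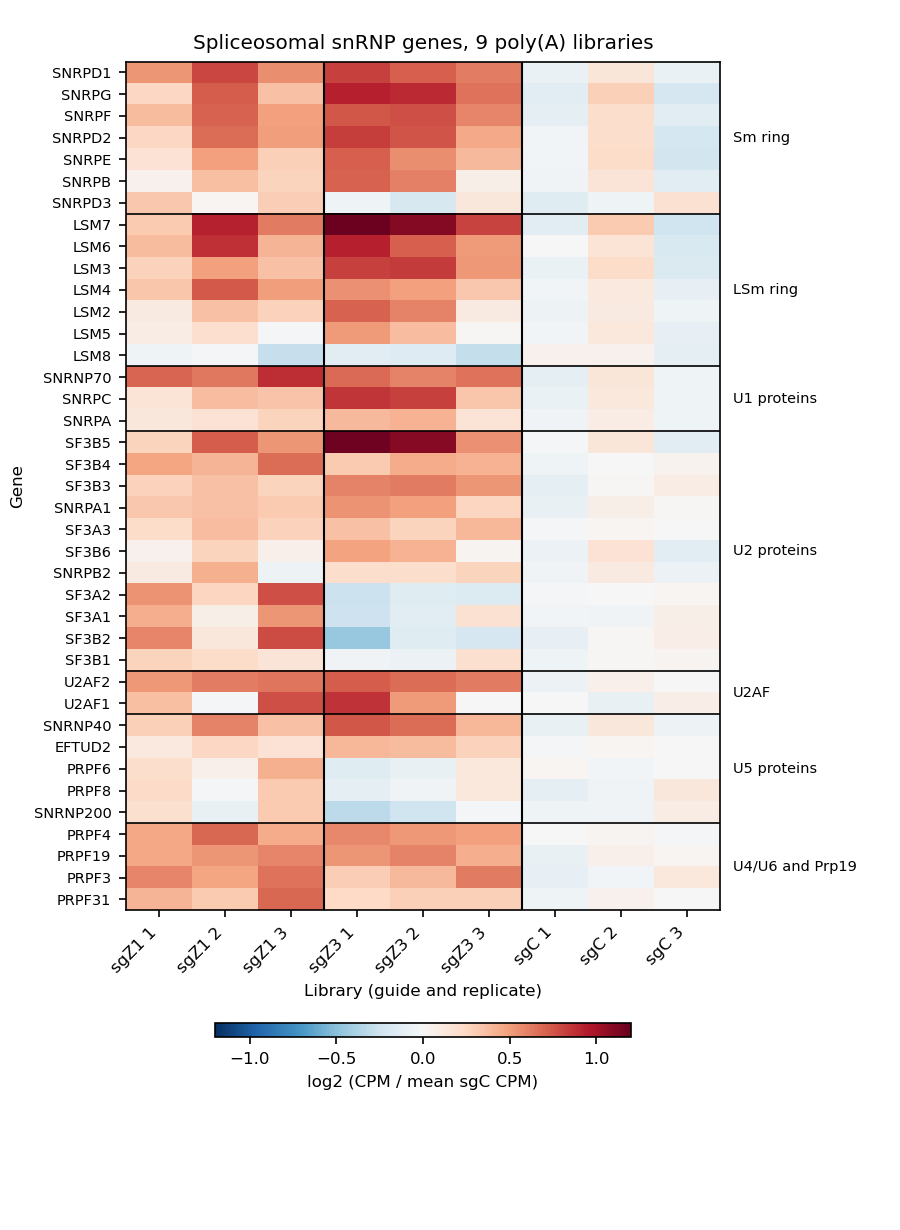
Level of each of the 39 genes (vertical axis, grouped by role) in each of the 9 poly(A) libraries (horizontal axis, by guide and replicate), as log2 of CPM over the mean CPM of the 3 sgC libraries. Red is higher and blue is lower than that mean: LSM7 and SF3B5 are darkest in sgZ3 replicates 1 and 2, while SF3A2 and SF3B2 are red in sgZ1 and pale blue in sgZ3 libraries.

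Of the 7 Sm ring genes, 5 rose over both guides (SNRPD1, SNRPD2, SNRPE, SNRPF and SNRPG) and 0 fell. SNRPD1 (chr18:21612267-21633524, plus strand; all gene positions are GENCODE 29, GRCh38) had 95.5, 115 and 97.6 CPM in sgZ1 libraries, 116, 109 and 101 CPM in sgZ3 libraries and 62.4, 73.3 and 62.6 CPM in sgC libraries. All 6 libraries of the ZNF692 guides lay above the highest sgC library, and the log2 fold change over both guides was 0.68 ± 0.095 (SE), or 1.6-fold (edgeR, adjusted p = 0.00053). SNRPF had 61.3, 77.2 and 66.6 CPM in sgZ1 libraries, 79, 80.7 and 70.9 CPM in sgZ3 libraries and 43.9, 54.8 and 43 CPM in sgC libraries. It too was above every sgC library in all 6, with a log2 fold change of 0.62 ± 0.11 (adjusted p = 0.0017). SNRPD2, which pairs with SNRPD1 in the ring, had 174, 234 and 208 CPM in sgZ1 libraries, 261, 248 and 201 CPM in sgZ3 libraries and 143, 170.2 and 127 CPM in sgC libraries. Its groups did not overlap, and its log2 fold change was 0.59 ± 0.12 (adjusted p = 0.0046).

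SNRPG, with the shortest principal transcript of the 7, had 129.5, 180.5 and 139 CPM in sgZ1 libraries, 208, 203 and 171 CPM in sgZ3 libraries and 99.5, 133 and 94.9 CPM in sgC libraries. The lowest sgZ1 library lay below the highest sgC library, so the groups overlapped, although the log2 fold change was 0.64 ± 0.14 (adjusted p = 0.0045). SNRPE had 86.1, 108 and 93.2 CPM in sgZ1 libraries, 126, 112 and 100.4 CPM in sgZ3 libraries and 75, 89 and 65.5 CPM in sgC libraries and a log2 fold change of 0.44 ± 0.12 (adjusted p = 0.013). SNRPB, which encodes the B and B′ proteins, missed the threshold over both guides at 0.36 ± 0.13 (adjusted p = 0.053, 95% interval 0.07 to 0.65) and passed it with sgZ3 at 0.49 ± 0.15 (adjusted p = 0.024). SNRPB had 495, 461 and 319 CPM in sgZ3 libraries and 293, 337 and 277 CPM in sgC libraries, which overlapped. The call with sgZ3 was kept in 13 of 21 alternative settings, with log2 fold changes from 0.06 to 0.66. In GENCODE 29, 20% of its exon length is shared with AL049650.1 on the same strand. SNRPD3 had 36.5, 29.7 and 35.8 CPM in sgZ1 libraries, 28.2, 25.6 and 32.2 CPM in sgZ3 libraries and 26.5, 28.1 and 33.1 CPM in sgC libraries, all groups overlapping, and a log2 fold change of 0.09 ± 0.11 (interval -0.14 to 0.33). Of its exon length 12% is shared with GGT1 on the same strand and 12.6% with a gene on the other, and the strand setting of the counting is not given in the sources used here, so its reads and theirs may be mixed.

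Of the 7 LSm ring genes, 5 rose (LSM2, LSM3, LSM4, LSM6 and LSM7) and 0 fell. LSM7 (chr19:2321517-2328620, minus strand) had 72.2, 111 and 89.7 CPM in sgZ1 libraries, 131, 125 and 102 CPM in sgZ3 libraries and 53, 72.2 and 49.4 CPM in sgC libraries. It had the highest log2 fold change of the 39 over both guides, 0.84 ± 0.16 or 1.79-fold (adjusted p = 0.0023), while sgZ1 replicate 1 and sgC replicate 2 were level. LSM6 had 49.8, 70.1 and 50.6 CPM in sgZ1 libraries, 72.6, 62.7 and 54.2 CPM in sgZ3 libraries and 38.1, 42.8 and 33.6 CPM in sgC libraries. All 6 libraries of the ZNF692 guides exceeded the sgC libraries, with a log2 fold change of 0.65 ± 0.14 (adjusted p = 0.0044).

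LSM3 had 88.8, 103 and 93.8 CPM in sgZ1 libraries, 129, 131 and 105 CPM in sgZ3 libraries and 69.4, 85.7 and 64.9 CPM in sgC libraries, and every sgZ3 library was above every sgZ1 library. Its log2 fold change was 0.38 ± 0.12 with sgZ1 and 0.73 ± 0.13 with sgZ3, and the difference between the guides missed the threshold (adjusted p = 0.05). LSM4 had 217, 287 and 243 CPM in sgZ1 libraries, 252, 242 and 216 CPM in sgZ3 libraries and 168, 187 and 161 CPM in sgC libraries, with no overlap with sgC and similar log2 fold changes of 0.53 ± 0.11 and 0.46 ± 0.11 for sgZ1 and sgZ3. LSM2 had a log2 fold change of 0.37 ± 0.12 over both guides (adjusted p = 0.036). The call of LSM2 was lost in 12 of 20 alternative settings, the most among the 25 genes.

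LSM8, the subunit that distinguishes the nuclear ring on U6 RNA from the cytoplasmic mRNA decay ring, was the only one of the 39 with a log2 fold change below -0.1 over both guides. It had 32.6, 33.2 and 27.8 CPM in sgZ1 libraries, 31, 30.3 and 27.8 CPM in sgZ3 libraries and 35, 34.9 and 31.3 CPM in sgC libraries. The 3 sgZ3 libraries lay below the 3 sgC libraries and the sgZ1 libraries overlapped them, and the log2 fold change was -0.15 ± 0.089 (adjusted p = 0.21, interval -0.34 to 0.05). Scaled by library totals alone, LSM8 was called lower over both guides at -0.25 (adjusted p = 0.042). LSM1, which takes the place of LSM8 in the decay ring, rose at 0.7 ± 0.1 (adjusted p = 7e-04). Of the exon length of LSM1, 38.5% overlaps genes on the other strand, BAG4 among them, so reads of these genes may be mixed with those of LSM1.

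All 3 U1 genes rose over both guides and with sgZ3 against sgC, while with sgZ1 against sgC only SNRNP70 was called. SNRNP70 (chr19:49085419-49108605, plus strand), whose protein U1-70K binds the first stem-loop of U1 RNA, had 153, 146 and 174 CPM in sgZ1 libraries, 151, 142 and 148 CPM in sgZ3 libraries and 87.4, 104 and 90.8 CPM in sgC libraries. The gap between the lowest guided library and the highest sgC library was wide, and the log2 fold change was 0.69 ± 0.088, or 1.62-fold (adjusted p = 0.00031). With sgZ1 it was the highest of the 39 (0.75 ± 0.1, adjusted p = 0.00021). SNRPC (chr6:34757406-34773794, plus strand), whose protein touches the paired 5′ splice site, had 118, 136 and 134 CPM in sgZ1 libraries, 191, 185 and 132 CPM in sgZ3 libraries and 99.6, 115 and 101 CPM in sgC libraries. All 6 guided libraries were above sgC, sgZ3 replicates 1 and 2 far above the rest, and the log2 fold change was 0.49 ± 0.12 (adjusted p = 0.0084). SNRPA, whose protein binds another stem-loop of U1 RNA, had 144, 148 and 159 CPM in sgZ1 libraries, 172, 176 and 148 CPM in sgZ3 libraries and 128, 140.0 and 127 CPM in sgC libraries. Its groups did not overlap, but its change was smaller, at 0.26 ± 0.082 (adjusted p = 0.03), and the call was lost in 10 of 20 alternative settings.

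Among the 11 U2 genes, 5 rose over both guides (SF3A3, SF3B3, SF3B4, SF3B5 and SNRPA1) and 0 fell. SF3B5, a small subunit that sits with SF3B1 and SF3B3 in the SF3b complex, had 122, 168 and 147 CPM in sgZ1 libraries, 229, 216 and 149 CPM in sgZ3 libraries and 99.8, 112 and 93.1 CPM in sgC libraries. The 6 guided libraries were above every sgC library, and its log2 fold change was 0.74 ± 0.14, 1.67-fold (adjusted p = 0.0028). SF3B3 (chr16:70523788-70577670, plus strand), a large scaffold of the same complex, had 525, 552 and 520.1 CPM in sgZ1 libraries, 651, 664 and 622 CPM in sgZ3 libraries and 401, 437 and 458 CPM in sgC libraries. Here the 3 groups were ordered sgZ3, sgZ1, sgC from high to low without overlap, and the log2 fold change was 0.44 ± 0.071 over both guides (adjusted p = 0.0011).

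SF3B4 had 103, 98.7 and 118 CPM in sgZ1 libraries, 92.3, 101 and 99.6 CPM in sgZ3 libraries and 71.9, 74.4 and 76.8 CPM in sgC libraries, with guided libraries all above sgC and a log2 fold change of 0.46 ± 0.083 (adjusted p = 0.002). SNRPA1, whose protein pairs with SNRPB2 on U2 RNA, had 74.4, 75.9 and 74 CPM in sgZ1 libraries, 86.5, 83.7 and 70.9 CPM in sgZ3 libraries and 56, 62.2 and 60.2 CPM in sgC libraries, again without overlap, and rose at 0.38 ± 0.086 (adjusted p = 0.0062). SF3A3 rose at 0.31 ± 0.071 (adjusted p = 0.0063). SF3B1, which clamps the branch point, did not pass the test: its log2 fold change over both guides was 0.12 ± 0.078 (adjusted p = 0.23, 95% interval -0.05 to 0.29). That interval leaves out the estimate for SF3B5, but the difference between these genes was not tested. Their principal transcripts are 6526 bp (SF3B1) and 693 bp (SF3B5) long, and SF3B1 was called higher with offsets for length and GC content. SNRPB2 and SF3B6 had 0.2 ± 0.1 and 0.23 ± 0.11, with adjusted p-values of 0.15 and 0.14.

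Of the U2AF pair, U2AF2 (chr19:55654146-55674715, plus strand), the subunit that binds the polypyrimidine tract, had the smallest adjusted p of the 39. It had 335, 359 and 365 CPM in sgZ1 libraries, 388, 373 and 359.8 CPM in sgZ3 libraries and 223, 244 and 235 CPM in sgC libraries. Every guided library was above every sgC library, and the log2 fold change was 0.63 ± 0.071, or 1.55-fold (edgeR, adjusted p = 2e-04), at 0.59 ± 0.08 for sgZ1 and 0.67 ± 0.08 for sgZ3. U2AF1, which reads the AG at the intron's end, had only 6.52, 5.04 and 8.67 CPM in sgZ1 libraries, 9.27, 7.21 and 5.08 CPM in sgZ3 libraries and 5.07, 4.77 and 5.37 CPM in sgC libraries. The GRCh38 build holds a near-identical copy, U2AF1L5, with 2.24, 1.02 and 2.02 CPM in sgZ1 libraries, 0.541, 1.95 and 0.863 CPM in sgZ3 libraries and 0.341, 0.696 and 0.469 CPM in sgC libraries, so reads of U2AF1 may have been split or lost between the copies and its level is uncertain. Its log2 fold change was 0.45 ± 0.2 (adjusted p = 0.11, interval 0.01 to 0.89).

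The U5 genes were divided. SNRNP40, a WD-repeat protein, and EFTUD2, a GTPase that is the counterpart of yeast Snu114, rose, while PRPF8, SNRNP200 and PRPF6 did not pass the test. SNRNP40 had 67.5, 83.3 and 70.5 CPM in sgZ1 libraries, 92.7, 87.6 and 72.7 CPM in sgZ3 libraries and 51.9, 60.7 and 53 CPM in sgC libraries, all guided libraries above sgC, and a log2 fold change of 0.52 ± 0.11 (adjusted p = 0.004). EFTUD2 had 356, 392 and 371 CPM in sgZ1 libraries, 435, 427 and 399 CPM in sgZ3 libraries and 324, 335 and 328 CPM in sgC libraries. Its groups did not overlap either, and its change was 0.27 ± 0.068 (adjusted p = 0.012). PRPF8, which holds the catalytic RNA, had 763, 644 and 809 CPM in sgZ1 libraries, 600.5, 631 and 709 CPM in sgZ3 libraries and 604, 630.3 and 715 CPM in sgC libraries. The libraries of all guides overlapped, with a log2 fold change of 0.09 ± 0.093 (adjusted p = 0.48) and an interval of -0.11 to 0.29. SNRNP200, the helicase that unwinds U4 from U6, was at -0.02 ± 0.099 (interval -0.23 to 0.2). PRPF6, which bridges U5 and U4/U6, had 149.5, 135 and 174 CPM in sgZ1 libraries, 116, 121 and 141 CPM in sgZ3 libraries and 131, 126 and 129 CPM in sgC libraries and a log2 fold change of 0.11 ± 0.095 (interval -0.1 to 0.31).

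All 4 genes of the U4/U6 and Prp19 group rose over both guides, by similar amounts, and in each the 6 guided libraries were above the 3 sgC libraries. With sgZ3 against sgC, PRPF31 was not called. PRPF4 had 154, 180.1 and 152 CPM in sgZ1 libraries, 166, 159.9 and 157 CPM in sgZ3 libraries and 111, 114 and 109.5 CPM in sgC libraries and a log2 fold change of 0.53 ± 0.079 (adjusted p = 0.00071). PRPF19 (chr11:60890730-60906588, minus strand), the ubiquitin ligase of the Prp19 complex, had 222, 233 and 241 CPM in sgZ1 libraries, 232, 244 and 217 CPM in sgZ3 libraries and 151, 168 and 164 CPM in sgC libraries, with 0.52 ± 0.075 (adjusted p = 0.00057). These 2 genes had nearly equal changes with sgZ1 and sgZ3, at 0.54 and 0.53 for PRPF4 and 0.53 and 0.52 for PRPF19. PRPF3, the partner of PRPF4, had 27.2, 25.3 and 28.5 CPM in sgZ1 libraries, 22.4, 23.9 and 28.1 CPM in sgZ3 libraries and 17, 17.8 and 19.8 CPM in sgC libraries and rose at 0.51 ± 0.1 (adjusted p = 0.0034). PRPF31, which holds the U4 RNA with SNU13, had 65.7, 61.5 and 79.9 CPM in sgZ1 libraries, 58.4, 60.1 and 60.3 CPM in sgZ3 libraries and 47.7, 51.1 and 49.4 CPM in sgC libraries and rose at 0.38 ± 0.093 (adjusted p = 0.0099). Of its exon length 32% overlaps genes on the other strand, TFPT among them, whose reads may be mixed with its own.

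**Figure D2:**
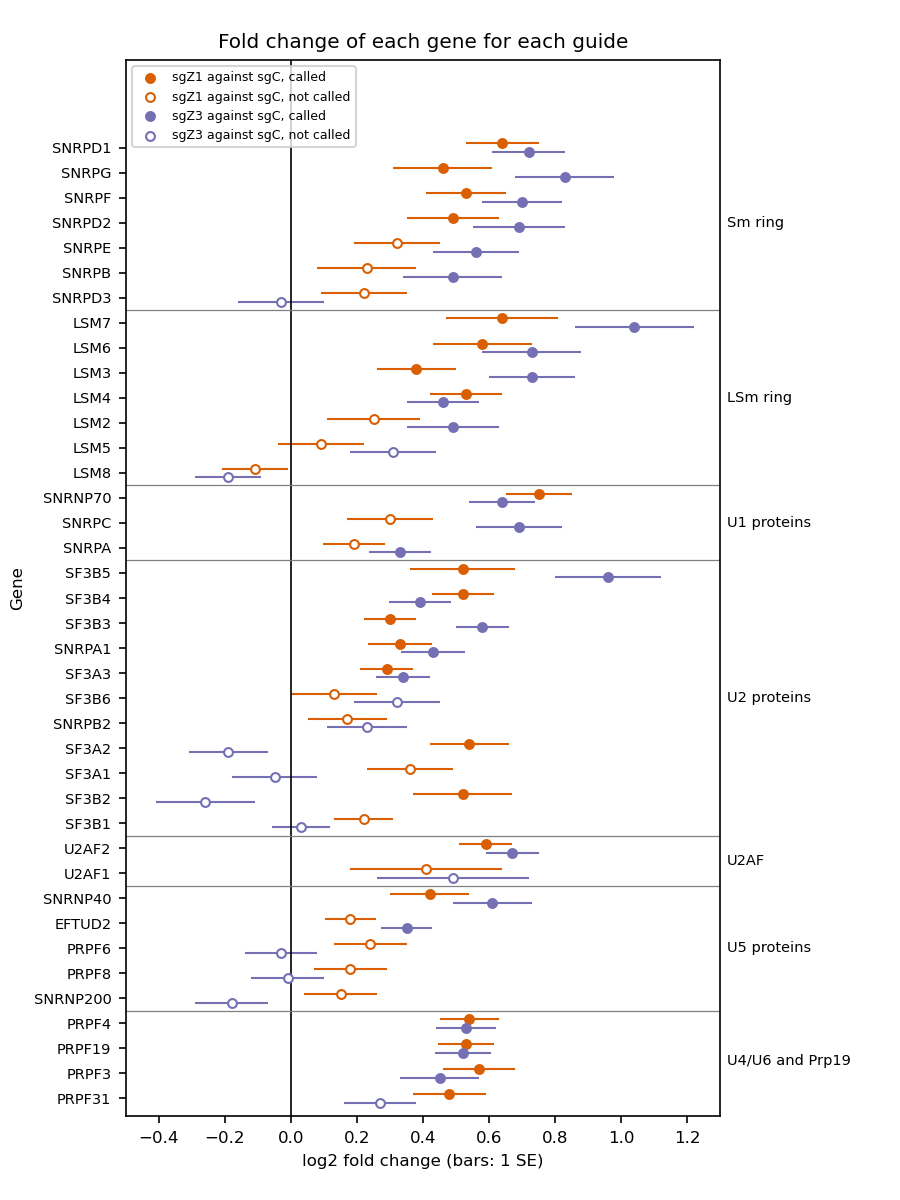
Log2 fold change against sgC (horizontal axis, bars of 1 SE) for each of the 39 genes (vertical axis, by role), with sgZ1 in orange and sgZ3 in violet and filled points for called genes. The U4/U6 and Prp19 genes lie between 0.27 and 0.57 with both guides, while SF3A2 and SF3B2 lie on opposite sides of 0.

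Levels of different genes were compared as CPM per kb of summed exon length. In sgZ1, sgZ3 and sgC libraries, SNRPB stood at 278 ± 30.1, 332 ± 73.2 and 237 ± 24.5 CPM per kb (SD, n = 3 each), and SF3B5 at 210.5 ± 33.2, 286 ± 62.1 and 147 ± 14. These were the highest levels of the 39 in all 3 groups. At the lower end, in the same order, SF3B2 stood at 4.08 ± 0.898, 2.36 ± 0.266 and 2.83 ± 0.183 CPM per kb. Apart from U2AF1 with its copy, SF3B2 was the lowest of the 39 by this measure. Its summed exon length is 9795 bp and its principal transcript 2903 bp, while for SF3B5 both are 693 bp. Subunits of one complex thus differed in transcript level per summed exon length, and the ranks and the size of such gaps depend on the annotated exons.

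Windows at the RefSeq starts are shown because the genes rose together. They are the 250 bases before that start (GRCh38.p14), found for 35 of the 39 genes. No entry was used for LSM6, PRPF3, SF3B3 and SNRPD1. The motifs searched, on both strands, were CCGGAAG (ETS factors), GCATGCG (part of the NRF1 site), GATGGCG (part of the YY1 site) and CACGTG (the E-box of MYC and USF factors). The windows below show SNRPC with overlapping ETS letters on both strands and the YY1 letters, U2AF2 with the ETS letters once, LSM7 with NRF1 letters that overlap on both strands at separate places, and SNRNP70 with none of the 4. Capitals mark the matches, and each window is read 5′ to 3′ on the gene's strand. The windows of SNRPC, LSM7 and SNRNP70 reach in part into the gene as GENCODE 29 bounds it, and that of U2AF2 lies wholly within it. Among windows not printed here, those of SNRPG, SF3A3, SF3B2 and LSM5 also lie wholly within the gene, and that of SNRPE nearly so. Such windows need not be promoters. SNRPC lies at chr6:34757255-34757504 (plus strand), U2AF2 at chr19:55654785-55655034 (plus strand), LSM7 at chr19:2328587-2328836 (minus strand) and SNRNP70 at chr19:49085201-49085450 (plus strand).
SNRPC: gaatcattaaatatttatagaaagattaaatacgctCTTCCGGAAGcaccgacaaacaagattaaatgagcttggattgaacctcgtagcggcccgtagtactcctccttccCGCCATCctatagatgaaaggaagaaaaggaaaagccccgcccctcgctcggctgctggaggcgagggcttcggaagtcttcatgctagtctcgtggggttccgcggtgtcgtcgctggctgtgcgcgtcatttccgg
U2AF2: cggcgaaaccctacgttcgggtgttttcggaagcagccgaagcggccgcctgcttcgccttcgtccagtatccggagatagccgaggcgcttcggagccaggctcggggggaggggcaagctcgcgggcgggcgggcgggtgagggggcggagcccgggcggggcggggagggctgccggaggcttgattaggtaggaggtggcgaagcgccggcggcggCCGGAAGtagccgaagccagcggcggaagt
LSM7: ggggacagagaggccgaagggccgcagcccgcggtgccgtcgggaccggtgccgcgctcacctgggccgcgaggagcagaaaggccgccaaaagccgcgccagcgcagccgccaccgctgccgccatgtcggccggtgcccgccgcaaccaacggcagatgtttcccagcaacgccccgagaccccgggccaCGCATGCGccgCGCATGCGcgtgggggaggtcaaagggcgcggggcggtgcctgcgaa
SNRNP70: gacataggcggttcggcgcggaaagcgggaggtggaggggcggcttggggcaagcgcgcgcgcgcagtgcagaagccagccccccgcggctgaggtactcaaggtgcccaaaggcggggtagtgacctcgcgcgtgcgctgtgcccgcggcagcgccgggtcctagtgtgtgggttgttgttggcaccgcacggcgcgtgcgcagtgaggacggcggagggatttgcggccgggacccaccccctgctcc

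The ETS letters stood in 17 of the 35 windows (48.6%), against 15.5% of the windows of 10907 tested genes. They were in 8 of the 21 windows of genes that rose over both guides (38.1%), SNRPC, U2AF2, SNRPD2, SNRPG and SNRPE among them. They were also in 9 of the 14 windows of genes not called (64.3%), among them SF3A1, SF3A2, SF3B2, LSM8 and SNRNP200. The NRF1 letters were in 3 of 35 windows (8.57%, those of LSM7, SF3A2 and U2AF1), against 5.48% of tested genes, and the E-box was in 2 (5.71%, EFTUD2 and SF3B1), against 8.78%. The YY1 letters were in 1 of 35 (2.86%, SNRPC), against 3.35%. Windows that lie within the gene, such as those of U2AF2, SNRPG, SF3A3 and SF3B2, were counted in these shares. A match is a string of letters, and binding was not measured.

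The fold changes were set against transcript length (that of the principal transcript in GENCODE 29). Across the 39 genes, log2 length and log2 fold change had a Pearson r of -0.17 for sgZ1 and -0.48 for sgZ3, and across 14616 tested genes -0.06 and -0.28. The points share libraries and depth, and genes are not independent replicates. The 13 members under 1500 bp, such as LSM7, SF3B5 and SNRPG, had a median of 0.33 with sgZ1 and 0.56 with sgZ3, where all tested genes of that length had 0.10 and 0.26. The 19 members between these lengths had 0.52 and 0.39, so with sgZ1 they stood above the short ones and with sgZ3 below them. The 7 members of 4000 bp or more, PRPF8, SNRNP200, SF3B1 and SF3A1 among them, had 0.22 and 0.03, where all such genes had -0.06 and -0.23. SNRPD1 and SF3B3, with long principal transcripts, rose as well. With offsets for length and GC content per library, 27 of the 39 rose over both guides and 0 fell, where 19.4% of all genes were called higher and 17.6% lower. These were not the same genes as without the offsets. LSM5, SNRPB2, SF3B1 and PRPF8 were called higher with the offsets and not without them, and LSM2 and SNRPA lost their calls. In that fit LSM7 was at 0.54 (adjusted p = 0.0014) and SNRNP70 at 0.46 (adjusted p = 0.0015). With sgZ3 it gave 25 higher and 3 lower (22.1% and 17.5% of all genes), namely LSM8, SF3A2 and SF3B2.

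**Figure D3:**
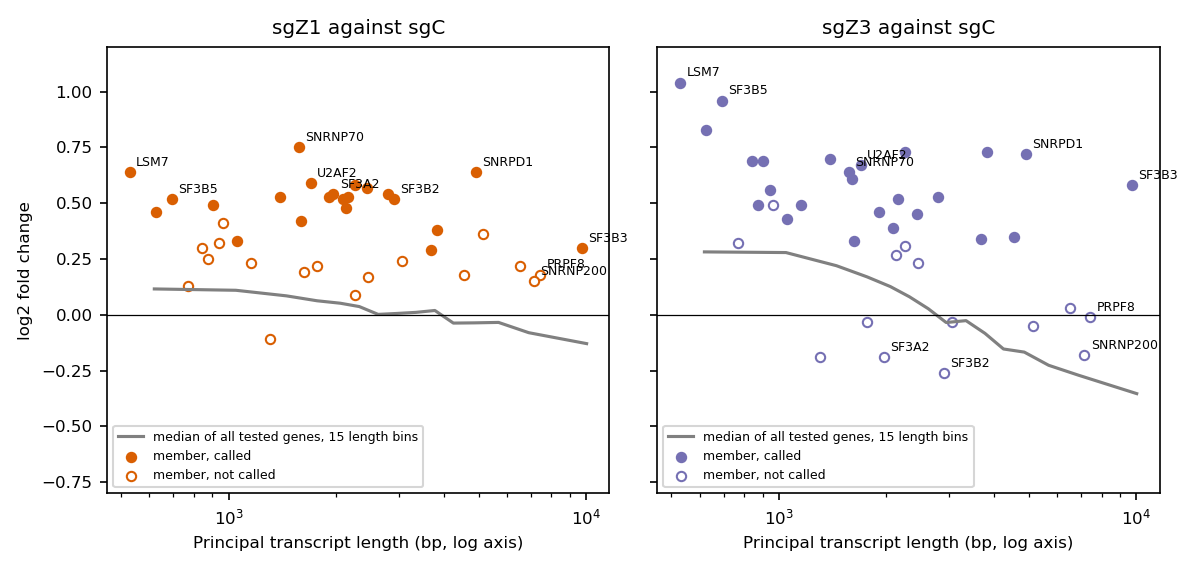
Log2 fold change (vertical axis) against the length of the principal transcript in bp (log axis) for the 39 genes, with sgZ1 on the left and sgZ3 on the right, both against sgC. The grey line is the median of all tested genes in 15 length bins; it falls with length, more steeply for sgZ3, and most filled points (called genes) lie above it.

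The guides differed from each other in 6 of the 39 genes: 2 were higher with sgZ3 than with sgZ1 (SF3B3 and SNRPC) and 4 lower (SF3A2, SF3B2, SF3A1 and SNRNP200). Of all tested genes 28.6% were called in this comparison, 12.8% as higher and 15.8% as lower, so the share of members called was below that of all genes. The count was 2 (SF3A2 and SF3B2) in a fit of sgZ1 and sgZ3 alone, 2 without sgZ1 replicate 1 or 3 or sgZ3 replicate 1 or 2, 3 without sgC replicate 1 or 3, 14 without sgZ1 replicate 2 and 16 without sgZ3 replicate 3. Of 21 alternative settings, SNRPC was called in 8, SNRNP200 in 10, SF3A1 in 11, SF3B3 in 12 and SF3B2 in 20. SF3A2 (chr19:2236504-2248679, plus strand) had 127, 104 and 149 CPM in sgZ1 libraries, 73.1, 78.8 and 77.7 CPM in sgZ3 libraries and 86, 87.3 and 88.5 CPM in sgC libraries. The sgZ1 libraries were above and the sgZ3 libraries below the narrow range of sgC, with log2 fold changes of 0.54 ± 0.12 for sgZ1 (edgeR, adjusted p = 0.0055) and -0.19 ± 0.12 for sgZ3 (adjusted p = 0.22). The difference of sgZ3 from sgZ1 was -0.73 ± 0.12 (adjusted p = 0.00081), and it was called in all 21 settings. Of the exon length of SF3A2, 12.7% is shared with PLEKHJ1 on the other strand.

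SF3B2 (chr11:66050729-66069308, plus strand), a further SF3b subunit, showed the same layout at a lower level. It had 41.7, 30.4 and 47.7 CPM in sgZ1 libraries, 20.2, 25.1 and 24.2 CPM in sgZ3 libraries and 25.8, 28 and 29.4 CPM in sgC libraries. Every sgZ1 library was above and every sgZ3 library below the sgC libraries, and the difference of sgZ3 from sgZ1 was -0.78 ± 0.15 (adjusted p = 0.0026). SF3A1 (chr22:30331988-30356947, minus strand), another subunit of the SF3A trimer, had 279, 216 and 297 CPM in sgZ1 libraries, 173, 188 and 234 CPM in sgZ3 libraries and 200.5, 199.9 and 216 CPM in sgC libraries. Its sgZ1 and sgZ3 libraries overlapped, sgZ1 replicate 2 being the lowest of its group and sgZ3 replicate 3 the highest, and the difference was -0.41 ± 0.13 (adjusted p = 0.037). SNRNP200 (chr2:96274336-96305515, minus strand) had 549, 450.0 and 597 CPM in sgZ1 libraries, 385, 406 and 476 CPM in sgZ3 libraries and 463, 467 and 509 CPM in sgC libraries, overlapping likewise, with a difference of -0.33 ± 0.11 (adjusted p = 0.047).

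SF3A1 and SNRNP200 both had sgZ1 replicate 2 and sgZ3 replicate 3, the libraries with mesenchymal transcripts, on the side of the other guide. Without these libraries the differences of sgZ3 from sgZ1 were -0.71 for SF3A1, -0.57 for SNRNP200, -0.90 for SF3A2 and -1.01 for SF3B2, and all 4 were then called lower with sgZ3 than with sgC. In that setting 27 of the 39 genes differed between the guides, 16 higher and 11 lower, where 23.2% and 29.9% of all genes did. The part of the mesenchymal transcripts in these differences was not tested. Within sgZ3, replicate 3 was also the only library without raised short transcripts, so these traits cannot be told apart there.

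SNRPC and SF3B3 were higher with sgZ3 than with sgZ1, at 0.39 ± 0.13 (adjusted p = 0.044) and 0.28 ± 0.08 (adjusted p = 0.022). For SNRPC, replicate 3, the sgZ3 library without raised short transcripts, lay within the sgZ1 range. Without sgZ3 replicates 1 and 2 the difference was 0.03, and it then rested on 1 sgZ3 library. That library also held the mesenchymal transcripts, so within sgZ3 these traits cannot be told apart. SF3B3 had no overlap between the guides, and its difference without those replicates was 0.22 (adjusted p = 0.33). Without them SF3A2 alone was called among the 39, where 3.82% of all genes were higher and 5.89% lower. In 7 of the 39 genes the fold changes of the guides had opposite signs, SF3A1, SF3A2, SF3B2, SNRNP200, PRPF6, PRPF8 and SNRPD3. In none of these 7 did both guides pass the test against sgC.

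**Figure D4:**
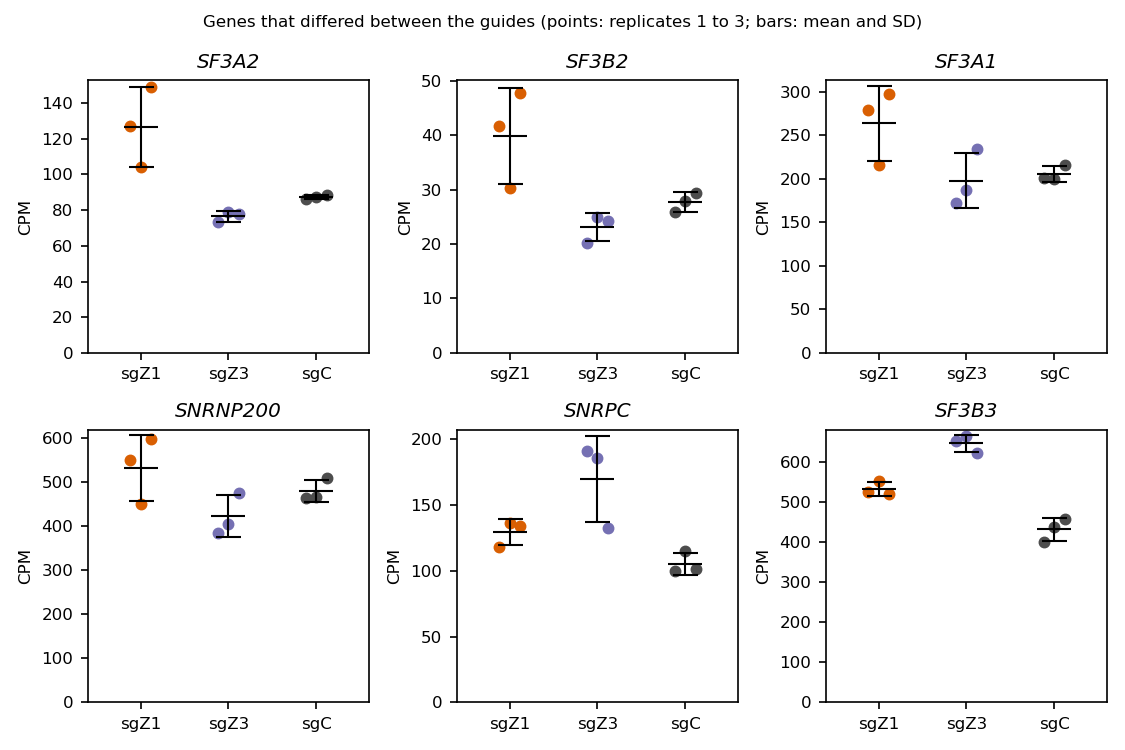
CPM (vertical axis, from 0) in each library for the 6 genes called between sgZ3 and sgZ1, with points for replicates 1 to 3 and bars for the mean and SD (n = 3 each). For SF3A2 the sgZ1 libraries lie at 104 or above, the sgZ3 libraries at 78.8 or below, and the sgC libraries between them.

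Other genes of the splicing pathway were read from 10 lists, all with the 39 core genes left out, and their counts stand beside the 18.6% of all tested genes called higher and 14.6% called lower over both guides. Some genes named below share exon length with others, so reads may be mixed. On the other strand this holds for 38.9% of PPIH, 36.7% of SRSF2 and 25% of RBM8A, and on the same strand for 24% of WDR77. Of 21 genes that assemble and import snRNPs, 8 rose over both guides and 0 fell, with a median log2 fold change of 0.22. GEMIN4, part of the SMN complex that loads Sm rings onto RNA, had 129, 166 and 142 CPM in sgZ1 libraries, 221, 217 and 199 CPM in sgZ3 libraries and 85.3, 96.6 and 97.6 CPM in sgC libraries. All guided libraries were above sgC, sgZ3 above sgZ1, and the log2 fold change was 0.92 ± 0.096, 1.89-fold (adjusted p = 0.00013). WDR77, which works with PRMT5 to methylate Sm proteins, rose at 0.8 ± 0.11 (adjusted p = 0.00049), and WRAP53, a Cajal body protein, at 0.74 ± 0.1 (adjusted p = 0.00056).

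Of 8 further tri-snRNP proteins, 6 rose over both guides and 0 fell, with a median of 0.50, near that of the core genes. With sgZ1, 4 rose and 0 fell (15.5% and 10.3% of all genes), and with sgZ3, 7 rose and 1 fell (19.2% and 17.1%). SART1 was the gene that fell with sgZ3, at -0.53, and it was called lower than with sgZ1, at -0.85. It had 98.7, 67.2 and 107 CPM in sgZ1 libraries and 44.7, 49.3 and 57.1 CPM in sgZ3 libraries. Its sgC libraries had 72.6, 69.6 and 76.6 CPM. USP39, which joins the tri-snRNP to the assembling spliceosome, had 217, 263 and 221 CPM in sgZ1 libraries, 274, 252 and 215 CPM in sgZ3 libraries and 160.5, 172 and 163 CPM in sgC libraries, with no overlap, and rose at 0.54 ± 0.096 (adjusted p = 0.0018). DDX23, the helicase that releases U1 from the 5′ splice site, rose at 0.47 ± 0.093, and PPIH, a cyclophilin bound to PRPF4, at 0.61 ± 0.13 (adjusted p-values 0.0034 and 0.0045). Of 18 genes of the Prp19 complex and the activated spliceosome, by contrast, 3 rose and 2 fell, shares of 16.7% and 11.1%, close to those of all genes, and the median was 0. CDC40, needed for the second step of splicing, had 73, 66.4 and 58.5 CPM in sgZ1 libraries, 52.6, 52.5 and 59.5 CPM in sgZ3 libraries and 82.8, 80.5 and 82.4 CPM in sgC libraries, all guided libraries below sgC, and fell by 0.44 on the log2 scale (SE 0.086, adjusted p = 0.0029). SYF2 fell at -0.29 ± 0.079 (adjusted p = 0.016). XAB2 rose with sgZ1 (0.49 ± 0.086) and was at 0.06 ± 0.086 with sgZ3, and sgZ3 differed from sgZ1 (adjusted p = 0.0031).

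Of 19 genes of snRNA transcription and 3′ end processing, 6 rose and 1 fell, with a median of 0.15. INTS11, the endonuclease of the Integrator complex, had 42.6, 47 and 49.7 CPM in sgZ1 libraries, 30.3, 30.5 and 29.1 CPM in sgZ3 libraries and 31.1, 29.6 and 28.2 CPM in sgC libraries. It rose with sgZ1 (0.65 ± 0.094, adjusted p = 0.00037), was at 0.02 ± 0.095 with sgZ3, and the guides differed (adjusted p = 0.00047). SNAPC2, of the complex that starts snRNA transcription, and INTS5 rose at 0.39 ± 0.095 and 0.4 ± 0.11 (adjusted p-values 0.01 and 0.013). Of 8 spliceosomal helicases, 2 rose over both guides (25%) and 0 fell. With sgZ1, 4 of the 8 rose and 0 fell, where 15.5% of all genes were called higher and 10.3% lower. With sgZ3, 2 rose and 1 fell, where 19.2% were called higher and 17.1% lower. The median log2 fold change of the 8 was 0.31 with sgZ1 and -0.12 with sgZ3. Between the guides, 4 were lower with sgZ3 than with sgZ1 and 0 higher, where 15.8% of all genes were lower and 12.8% higher. DDX5 had 359, 432 and 344 CPM in sgZ1 libraries, 444, 438 and 494 CPM in sgZ3 libraries and 249, 251 and 265 CPM in sgC libraries, without overlap, and rose at 0.71 ± 0.088 (adjusted p = 0.00028), and DHX15, which takes spliceosomes apart, at 0.43 ± 0.089 (adjusted p = 0.0041). Of 8 genes of the minor spliceosome, which removes a rare class of introns, SNRNP25 rose at 0.73 ± 0.16 and RNPC3 fell at -0.41 ± 0.14 (adjusted p-values 0.0054 and 0.046).

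Of 12 SR protein genes, which bind exonic enhancers, 11 were tested, 6 rose and 0 fell, with a median of 0.31. SRSF6 had 132, 125 and 119 CPM in sgZ1 libraries, 90.4, 89.7 and 93 CPM in sgZ3 libraries and 70.7, 74.3 and 77.1 CPM in sgC libraries, ordered sgZ1, sgZ3, sgC from high to low without overlap, and rose at 0.53 ± 0.074 (adjusted p = 0.00053). SRSF2 rose at 0.68 ± 0.11 and SRSF4 at 0.45 ± 0.089 (adjusted p-values 0.0013 and 0.0033). Of 11 hnRNP genes, 4 rose and 0 fell, with a median of 0.19: PTBP1, a repressor of many exons, rose at 0.51 ± 0.087, HNRNPF at 0.38 ± 0.093 and HNRNPD at 0.39 ± 0.11 (adjusted p-values 0.0014, 0.0099 and 0.018). HNRNPD rose with sgZ1 (0.71 ± 0.12) and was at 0.06 ± 0.12 with sgZ3, and the guides differed (adjusted p = 0.0021).

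Of the 5 exon junction complex genes, whose proteins mark spliced junctions, EIF4A3, RBM8A and MAGOH rose, at 0.54 ± 0.093, 0.32 ± 0.076 and 0.39 ± 0.11 (adjusted p-values 0.0016, 0.0083 and 0.022). Of 7 other LSm and Sm-like genes, LSM1 and LSM10 rose. LSM10, a ring protein of the U7 snRNP that processes histone mRNA, had 42.9, 64.9 and 52.4 CPM in sgZ1 libraries, 67.1, 67.5 and 51.6 CPM in sgZ3 libraries and 28.5, 33.4 and 29.2 CPM in sgC libraries. All guided libraries were above sgC, with a log2 fold change of 0.92 ± 0.14 or 1.9-fold (adjusted p = 0.00074).

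**Figure D5:**
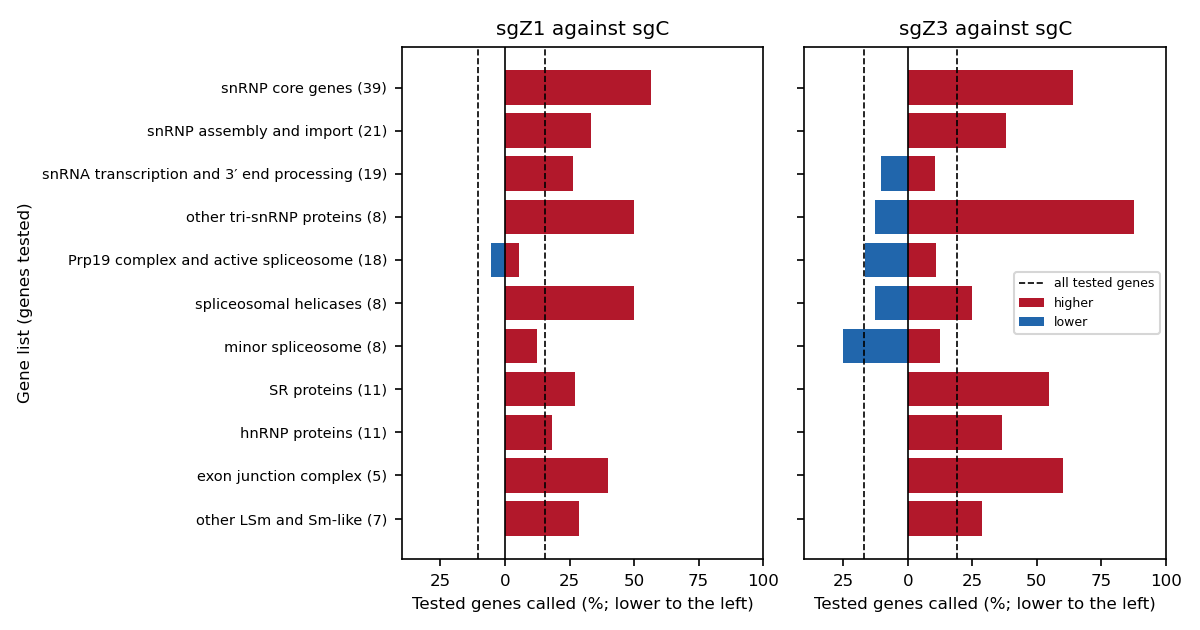
Share of tested genes in each list (vertical axis, number tested in brackets) called higher (red, to the right) or lower (blue, to the left) against sgC, in percent, for sgZ1 on the left and sgZ3 on the right. Dashed lines mark the shares of all tested genes: the 39 core genes reach 56.4% higher with sgZ1 and 64.1% with sgZ3, against 15.5% and 19.2%, while the Prp19 and activated spliceosome genes stay at or below the lines.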

How the data were processed

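Poly(A) RNA of DLD1 cells was measured in 9 libraries, 3 each for sgZ1, sgZ3 and sgC, grouped and numbered by the sample titles. The table the authors deposited holds raw counts: whole numbers for each gene in each library. The submitters' processing notes list STAR 2.5.2b for reads, with HTSeq, DESeq2 and SAMtools 1.9, and name GRCh38 (hg38). The sources used here give neither the annotation release nor whether strand was used. The third sgC sample is described with the other table's name and was kept as poly(A) by its title and molecule. The ribosomal RNA libraries were not used here.

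Tests were run with edgeR 4.0.16 and limma 3.58.1 (R 4.3.3): filterByExpr, TMM scaling, and a robust quasi-likelihood model of the 9 libraries with no term but the guide. This left 14732 genes, with a biological coefficient of variation of 12.7%. The 4 comparisons were both guides (mean), sgZ1 and sgZ3 against sgC, and sgZ3 against sgZ1, with Benjamini-Hochberg adjustment over all tested genes within each comparison. Lengths, overlaps and coordinates came from GENCODE 29, which held 99.2% of tested IDs. Length and GC offsets were loess fits per library. The edgeR test of both guides against sgC was checked on simulated counts. Those counts held no library traits of transcript length or mesenchymal transcripts, and the other comparisons and steps were not checked in this way.

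The members, the pathway and marker lists and the rule for named genes were chosen with earlier results of these data known. That rule gives per-library values to up to 4 genes per role with the smallest adjusted p and to genes that differ between guides or have opposite signs. It names up to 3 called genes per pathway list, U2AF1L5 and ZNF692. Values of further genes were added after they were seen. As alternatives, DESeq2 1.42.0, other scaling (RLE, upper quartile, totals), other filters, a stricter threshold, fits of the compared groups only, a replicate block and left-out libraries were run.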

Additional observations from a re-analysis of the deposited data

Results flagged for a closer look

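These 6 genes are listed because the effect of the guides differed by the direct test of sgZ3 against sgZ1 (edgeR, adjusted over all tested genes). SF3A2 had a log2 fold change of -0.73 between sgZ3 and sgZ1 and SF3B2 one of -0.78, and in both all 3 sgZ3 libraries were below and all 3 sgZ1 libraries above the sgC libraries. SF3A1 was at -0.41 and SNRNP200 at -0.33, lower with sgZ3, with overlapping libraries. SF3B3 was at 0.28 and SNRPC at 0.39, higher with sgZ3.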

How the results depend on the processing

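The counts of called members stayed within 1.5 times of those reported under RLE and upper-quartile factors, library totals, length and GC offsets, DESeq2 and other low-count filters in all 4 comparisons. Under these, 0 members were called lower over both guides or with either guide, except 1 over both guides and 3 with sgZ3 (beside 19 higher) with library totals, and 3 with sgZ3 with offsets. Between guides the split of 2 higher and 4 lower did not hold: it was 6 and 3 with offsets, 5 and 4 with no filter, 4 and 4 with DESeq2, and 0 and 7 with library totals. Of the 25 members called over both guides, 18 were called in all 20 alternative settings; for sgZ1 it was 11 of 22, for sgZ3 4 of 25 and between guides 1 of 6 (SF3A2), in 21 settings each. At a false discovery rate under 0.01, 11 members were called with sgZ1 and 2 between guides, and 2278, 2005, 2609 and 2254 of all genes over both guides, with sgZ1, with sgZ3 and between guides, against 4885, 3807, 5355 and 4209 at 0.05. Fits of only the compared groups called 2 members between guides. With a mean of at least 10 CPM, 2527 genes were called with sgZ1 and 2676 between guides. Over both guides, 5 members that were not called changed sign and stayed uncalled: with length and GC offsets PRPF6 was at -0.01, SF3A2 at -0.04, SNRPD3 at -0.06 and SNRNP200 at 0.06, with library totals PRPF8 and SNRPD3 were at -0.01, and SNRNP200 ran from -0.06 to 0.03 with 1 library left out and was at 0.06 without sgZ3 replicates 1 and 2. Leaving out 1 library at a time gave 18 to 29 members over both guides, 11 to 25 with sgZ1, 21 to 28 with sgZ3 and 2 to 16 between guides, and 2201 to 6337, 2129 to 4855, 3080 to 6796 and 2501 to 6153 of all genes. With sgZ1, 11 members were called without sgC replicate 1 and 12 without sgC replicate 3. Between guides, 14 were called without sgZ1 replicate 2 and 16 without sgZ3 replicate 3, against 2 without sgZ1 replicate 1 or 3 or sgZ3 replicate 1 or 2, and 3 without sgC replicate 1 or 3. Without the mesenchymal pair, 27 members were called between guides, and 7409, 5894, 8246 and 7932 of all genes. Leaving out sgZ3 replicates 1 and 2, chosen after seeing the data, gave 5 members with sgZ3 and 1 between guides, and 2878 genes over both guides, 959 with sgZ3 and 1537 between guides. The cause of these shifts was not tested. Same-numbered libraries of different guides correlated at -0.12 to 0.25 in their deviations, and differently numbered ones at -0.26 to 0.2. These ranges overlap, so they do not decide whether the numbers pair the libraries. With the replicate block, 26 members were called over both guides, 24 with sgZ1, 27 with sgZ3 and 11 between guides. Of the calls over both guides 56% were higher, 45.9% with upper-quartile factors and 36.6% with library totals. With sgZ3 it was 52.9%, 41.5% and 29.6%, between guides 44.7%, 27% with totals and 56.7% with offsets, and with sgZ1 60% and 48.9% with offsets. Library totals moved the median log2 fold change of all genes to -0.09 over both guides and -0.17 with sgZ3. Over all 39 members and settings, calls were lost and gained 38 and 20 times over both guides, 61 and 26 with sgZ1, 47 and 31 with sgZ3 and 44 and 60 between guides, and 0 turned to a call in the opposite direction.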
